A study of Saccharomyces cerevisiae with 4 samples.

Results

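The transcripts described here are those of the 6 regulators of sulfur amino acid metabolism in budding yeast, MET4, MET28, MET30, MET31, MET32 and CBF1, chosen by name out of 5449 Saccharomyces cerevisiae genes measured. Each had 1 probe set on the array, and none overlapped another annotated gene. The samples were 4 cultures of W1588-4c, a laboratory strain that the labels give as MATa and RAD5+. Every sample shared its marker alleles, which are trp1-1 for tryptophan, ura3-1 for uracil, leu2-3, 112 for leucine, his3-11,15 for histidine, ade2-1 for adenine and can1-100 for canavanine resistance. Cultures in synthetic complete medium (2% glucose, 30 °C) were taken in exponential growth. In 1 group of 2 arrays the cells were left untreated, and in the other group of 2 the cells received 0.4 mM allyl alcohol for 3 h. Allyl alcohol is oxidised by yeast alcohol dehydrogenases to acrolein, an aldehyde that reacts with thiols. The signals are the authors' RMA values on the log2 scale, so a difference of 1 is a 2-fold difference in signal. With whole cultures, a lower level in every cell cannot be told apart from fewer cells that express a gene.

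Met4 is the transcriptional activator of the genes that take up sulfate, reduce it and build it into homocysteine, methionine and cysteine. It belongs to the bZIP family but does not bind DNA stably by itself, and it reaches promoters through Cbf1, a basic helix-loop-helix protein, and through the paralogous zinc finger proteins Met31 and Met32. Met28 is a small bZIP-type cofactor that strengthens the binding of these complexes. Met30 is the F-box protein of an SCF ubiquitin ligase that ubiquitylates Met4 and holds it inactive when sulfur compounds are plentiful. Transcription of MET28 and MET30 is itself known to depend on Met4, and Cbf1 also binds centromere DNA.

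The arrays did not group by their labels. Across the 5449 genes, which are no independent replicates, Pearson's r was 0.757 inside untreated and 0.740 inside allyl alcohol. The array pairs with different labels reached 0.996 for untreated replicate 1 with allyl alcohol replicate 2, and 0.991 for untreated replicate 2 with allyl alcohol replicate 1. Arrays are therefore named by their labels, every direction is that of the labels, and comparisons are given both between and inside the labels. Whether 2 arrays carry each other's labels was not tested and cannot be told from these files. If they did, the gaps described below as inside a label would lie between untreated and treated cells, and the differences and 0 calls between the labels would not compare the conditions. The same arrays were also compared in their control probe sets and in mating type genes. For 42 control probe sets of Bacillus transcripts added to the RNA, the median log2 difference was 0.85 for untreated replicate 2 minus 1, and 1.10 for allyl alcohol replicate 1 minus 2. For 27 hybridisation controls it was 0.20 and 0.14. ACT1 signal at the 3' end exceeded that at the 5' end by between 0.18 and 0.27 on the log2 scale on the 4 arrays. The 7 a-specific genes that define the labelled mating type were above background on every array, with log2 summed signals of 15.41 and 15.37 on replicate 1 of untreated and replicate 2 of allyl alcohol, and of 13.62 and 13.78 on the other array of each. The 4 alpha-specific genes were above background on every array too, but their log2 summed signals stood the other way. They were 11.12 and 12.52 on untreated replicates 1 and 2, and 12.57 and 11.04 on allyl alcohol replicates 1 and 2. SAG1, alpha-agglutinin, was the only 1 of the 4 at least 2-fold apart inside both labels, at 4.78-fold and 5.56-fold. STE3, also alpha-specific, went against the sum, with -0.42 for untreated replicate 2 minus 1 and -0.45 for allyl alcohol replicate 1 minus 2. Among the 7 a-specific genes, 4 were at least 2-fold lower by these subtractions in both labels, while ASG7 had -0.24 and 0.22. The part of these differences in each result below was not tested.

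MET4 varied least of the 6 regulators. Its log2 signals were 10.64 and 11.21 on untreated replicates 1 and 2, and 11.60 and 10.69 on allyl alcohol replicates 1 and 2. All 4 values were far above background, which was set per array between 5.28 and 5.64, and the groups overlapped. The log2 difference of allyl alcohol minus untreated was 0.22 (standard error 0.50, 95% interval -1.22 to 1.66) between means of 10.93 ± 0.40 and 11.14 ± 0.64 (SD, n = 2 each), with an adjusted p of 1 in limma. It was -0.07 without untreated replicate 1 and -0.24 without allyl alcohol replicate 1. Its arrays stood 0.57 apart inside untreated and 0.91 apart inside allyl alcohol, where 60.9% and 44.5% of all genes had a wider one.

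The DNA-binding partners of Met4 differed from each other in size and direction. CBF1 had a log2 signal of 8.67 and 7.18 on untreated replicates 1 and 2, and of 7.36 and 8.92 on allyl alcohol replicates 1 and 2. The lower array of each label was thus untreated replicate 2 and allyl alcohol replicate 1, the reverse of the other 5 regulators. Of all genes, 44.7% had these arrays both below the other 2, and 45.9% had them both above. CBF1 was 2.81-fold lower on untreated replicate 2 than on replicate 1, and 2.97-fold lower on allyl alcohol replicate 1 than on replicate 2. A wider gap was seen in 21.4% and 21.1% of all genes. The group means of CBF1, untreated first, were 7.92 ± 1.05 and 8.14 ± 1.11 (SD, n = 2 each). Their difference of 0.22 (standard error 0.85, 95% interval -2.24 to 2.67) had an adjusted p of 1 in limma, and it was -0.53 without untreated replicate 2 and -0.57 without allyl alcohol replicate 2.

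MET28, the cofactor gene, had log2 signals of 7.92 and 9.57 on untreated replicates 1 and 2, and of 9.79 and 7.60 on allyl alcohol replicates 1 and 2. Each label therefore joined a high and a low array, and the groups overlapped. The signal was 3.13-fold apart inside untreated and 4.55-fold apart inside allyl alcohol. Of all genes, 17.3% and 9.8% had a wider gap. The group means were 8.74 ± 1.16 and 8.69 ± 1.55 (SD, n = 2 each), a difference of -0.05 (standard error 1.05, 95% interval -3.08 to 2.97) with an adjusted p of 1 in limma. It was 0.77 without untreated replicate 2 and 1.04 without allyl alcohol replicate 2, and 0.01 after the genes were quantile normalized anew.

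The paralogues MET31 and MET32 were far apart in how much they varied. MET31 had log2 signals of 9.73 and 10.44 on untreated replicates 1 and 2, and of 10.90 and 9.71 on allyl alcohol replicates 1 and 2. These were 1.64-fold and 2.28-fold apart inside the labels, and 52.2% and 32.9% of all genes had a wider gap. MET32 had 6.03 and 11.30 on untreated replicates 1 and 2, and 11.64 and 5.48 on allyl alcohol replicates 1 and 2. Its signal was close to background on untreated replicate 1, where background was 5.58, and below it on allyl alcohol replicate 2, where it was 5.64. MET32 was 38.5-fold higher on untreated replicate 2 than on replicate 1. It was at least 64.1-fold higher on allyl alcohol replicate 1 than on replicate 2, taking background as the level of the dim array. Only 10 of the 5449 genes had a wider gap inside untreated and 5 had a wider measured gap inside allyl alcohol.

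Between the labels neither paralogue passed the test. MET31 had group means of 10.08 ± 0.50 and 10.31 ± 0.84 (SD, n = 2 each), a difference of 0.23 (standard error 0.60, 95% interval -1.49 to 1.94). It was -0.13 without untreated replicate 1 and -0.37 without allyl alcohol replicate 1. MET32 had 8.66 ± 3.72 and 8.56 ± 4.35 (SD, n = 2 each), a difference of -0.10 (standard error 3.00, 95% interval -8.71 to 8.51), or -0.03 with the dim array set to its background. The small difference of means therefore comes from opposite arrays in each label and does not show a level signal. It was 2.53 without untreated replicate 2 and 2.98 without allyl alcohol replicate 2, and 0.06 after quantile normalization anew. The adjusted p in limma was 1 for both.

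MET30, the gene of the F-box protein that restrains Met4, had the second widest gap of the 6. Its log2 signals were 10.09 and 12.67 on untreated replicates 1 and 2, and 12.94 and 10.27 on allyl alcohol replicates 1 and 2. These values were 5.98-fold and 6.37-fold apart inside the labels, and 4.97% and 5.14% of all genes had a wider gap. The group means were 11.38 ± 1.82 and 11.61 ± 1.89 (SD, n = 2 each), a difference of 0.23 (standard error 1.40, 95% interval -3.80 to 4.25) with an adjusted p of 1 in limma. It was -1.06 without untreated replicate 1 and -1.11 without allyl alcohol replicate 1.

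**Figure D1:**
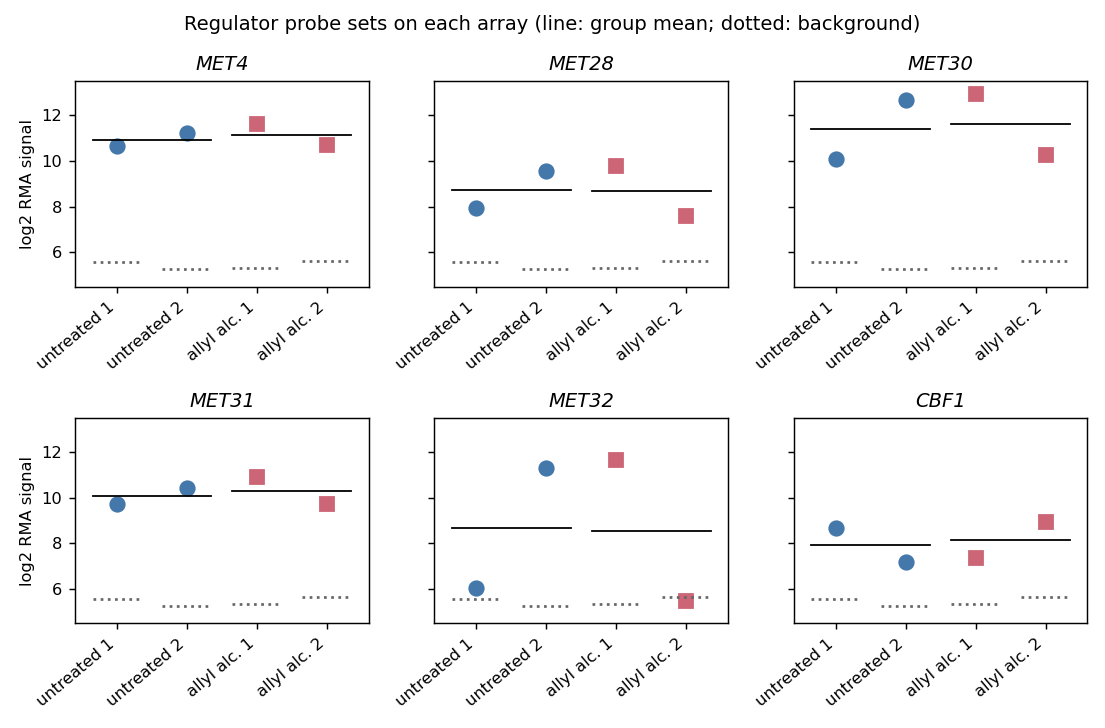
Log2 RMA signal of the 6 regulators (vertical axis) on each of the 4 arrays by label (horizontal axis); circles are untreated and squares allyl alcohol arrays, solid lines are group means and dotted lines each array's background. MET32 runs from 11.64 on allyl alcohol replicate 1 down to 5.48 on allyl alcohol replicate 2, and CBF1 is the regulator whose untreated replicate 2 and allyl alcohol replicate 1 are the lower arrays.

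By the labels, 0 of the 6 regulators passed limma at an adjusted p of 0.05, against 0.0% of all genes, and 0 had an unadjusted p under 0.05. The groups did not overlap for 0 of the 6, against 5.23% of all genes. The median difference was 0.22 for the regulators and -0.02 for all genes, with 4 positive and 2 negative, and 0 of the 6 differences reached 1 in size, against 0.0184% of all genes. With 2 arrays against 2, the smallest p of an exact two-sided permutation test is 0.333, and the median standard error over all genes was 0.51. Arrays with the same replicate number gave opposite directions for each regulator. Such opposite directions follow whenever untreated replicate 2 and allyl alcohol replicate 1 are both above, or both below, the other arrays. Both were above in 45.9% of all genes and both below in 44.7%, so the regulators share this with most genes. For MET32 allyl alcohol minus untreated was 5.61 on the replicate 1 arrays, and it was -5.66 or lower on the replicate 2 arrays, where the allyl alcohol array was below background. For MET30 the values were 2.85 and -2.40, for MET28 1.86 and -1.97, for MET31 1.18 and -0.72, for MET4 0.96 and -0.52, and for CBF1 -1.31 and 1.75.

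**Figure D2:**
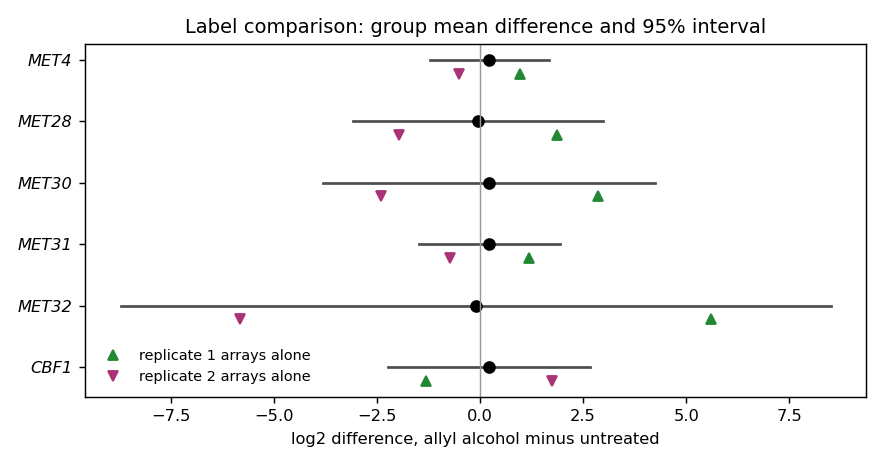
Log2 difference of allyl alcohol minus untreated (horizontal axis) for each regulator; black points are differences of group means with their 95% limma intervals, and triangles are the differences of single arrays that share a replicate number. Each interval spans 0, and the triangles lie on opposite sides of 0 for all 6 regulators. The 2 orderings of the arrays that give opposite sides were found in 45.9% and 44.7% of all genes. The MET32 triangle at -5.82 uses a signal below background.

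Inside untreated, 4 of the 6 regulators were at least 2-fold apart, against 38.0% of all genes, and inside allyl alcohol 5 were, against 40.8%. In both labels 4 were, against 34.4%. These are comparisons of single arrays with no test, and which array was subtracted from which was decided with the values in view. MET28, MET30 and MET32 were at least 2-fold higher on untreated replicate 2 than 1 and on allyl alcohol replicate 1 than 2, as were 18.6% of all genes. CBF1 was at least 2-fold lower in both, as were 15.8%. MET4 missed the 2-fold size in both labels. MET31 missed it inside untreated. For the regulators the median signed gap was 1.18 inside untreated and 1.69 inside allyl alcohol, against 0.04 and -0.001 for all genes. All 6 gaps were wider inside allyl alcohol than inside untreated, as were those of 57.0% of all genes. From widest to narrowest gap the order in each label was MET32, MET30, MET28, CBF1, MET31, MET4. Neighbours in this order cannot be told apart by a spread, since each gap rests on 1 pair of arrays.

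**Figure D3:**
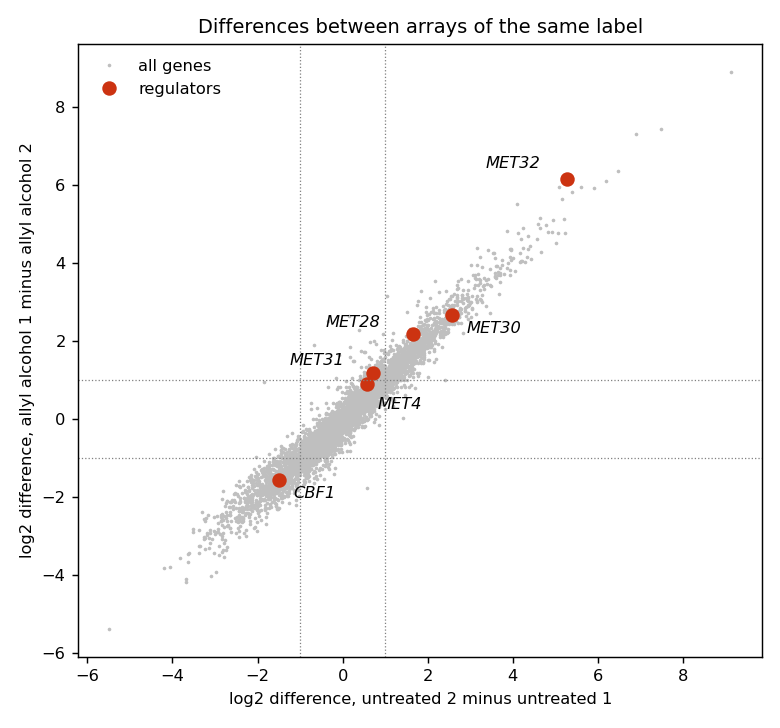
Log2 difference of untreated replicate 2 minus replicate 1 (horizontal axis) against allyl alcohol replicate 1 minus replicate 2 (vertical axis) for 5449 genes in grey and the 6 regulators in red; dotted lines mark 2-fold. MET32 lies near the far end of all genes at 5.27 and 6.16, the latter drawn from a signal below background and supported only as at least 6.00, CBF1 at -1.49 and -1.57, and MET4 within 2-fold at 0.57 and 0.91.

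The most alike pairs of arrays, which carry different labels, were also close for the regulators. On allyl alcohol replicate 1 all 6 stood above untreated replicate 2, by 0.18 for CBF1, 0.22 for MET28, 0.27 for MET30, 0.34 for MET32, 0.39 for MET4 and 0.47 for MET31 on the log2 scale. In this pair 43.2% of all genes stood above, their median was -0.04, and 3.65% had a larger value than MET31 and 17.6% a larger one than CBF1. On allyl alcohol replicate 2, 3 of the 6 stood above untreated replicate 1, against 46.9% of all genes. There CBF1 had 0.26, MET30 0.18, MET4 0.05, MET31 -0.01 and MET28 -0.32, while MET32 was below background on the allyl alcohol array. The direction seen in the first pair did not repeat in the second for MET28, MET31 and MET32, so these small differences of single arrays are given as values only.

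Other genes of sulfur metabolism, from lists of its branches, had wide gaps in the same direction as MET32, but not in every branch of the pathway. All lists were chosen with earlier results of these data known, and the direction of subtraction with the values in view. Their counts are therefore a description with no test. Of the 10 genes for sulfate uptake and reduction, 8 were at least 2-fold higher on untreated replicate 2 than 1 and on allyl alcohol replicate 1 than 2, and 0 were lower, against 18.6% higher and 15.8% lower of all genes. The list's medians were 2.58 inside untreated and 2.75 inside allyl alcohol. The sulfate permease gene SUL1 was 24.2-fold and 32.1-fold apart, MET3, ATP sulfurylase, 15.4-fold and 14.0-fold, MET16, the reductase of activated sulfate, 10.03-fold and 10.2-fold, and MET10, a sulfite reductase subunit, 7.95-fold and 7.97-fold. MET8, for the sirohaem cofactor, and MET22, a nucleotide phosphatase, stayed under 2-fold in both labels. By the labels 0 of the 10 were called in limma, with differences between -0.18 and 0.20.

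Uptake genes for organic sulfur stood in the same direction. Of 6 genes, 5 were at least 2-fold higher in both labels and 0 lower, against the same 18.6% and 15.8% of all genes, with medians of 4.04 and 4.25. The low-affinity methionine permease gene MUP3 was 23.9-fold and 24.6-fold apart, the cysteine transporter gene YCT1 20.03-fold and 17.7-fold, AGP3, an amino acid permease gene, 17.5-fold and 27.1-fold, and MMP1, for S-methylmethionine uptake, 15.6-fold and 20.5-fold. SAM3, for S-adenosylmethionine uptake, had -0.95 inside untreated and -0.77 inside allyl alcohol. None of the 6 was called between the labels in limma, where the differences lay between -0.12 and 0.17.

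Of 9 genes for homocysteine and methionine synthesis 1 was at least 2-fold higher and 1 at least 2-fold lower in both labels. That is 11.1% each, which is no more than the 18.6% and 15.8% of all genes. The medians were -0.16 and -0.35. MET2, homoserine acetyltransferase, was 118-fold and 158-fold higher on replicate 2 of untreated and replicate 1 of allyl alcohol, whereas MET13, a folate reductase gene, was 3.77-fold and 2.47-fold lower. The next widest were MET12, with -0.71 and -0.85, and MET17, which incorporates sulfide, with 0.68 and 0.68. Of 11 genes for transsulfuration, the S-adenosylmethionine cycle and glutathione, 4 were higher and 1 lower by at least 2-fold, or 36.4% and 9.09%. STR3, a cystathionine beta-lyase gene, was 21.3-fold and 21.5-fold higher, MHT1, a methyltransferase gene that recycles methionine, 14.5-fold and 14.7-fold, and GSH1, for the start of glutathione synthesis, 4.43-fold and 4.09-fold. SAH1, which breaks down S-adenosylhomocysteine, was 5.75-fold and 3.69-fold lower. Limma called 0 genes of either list between the labels, with differences between -0.17 and 0.30 in the first and -0.25 and 0.23 in the second.

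Of 5 genes for partners of Met30 in its ubiquitin ligase, 3 were higher and 0 lower by at least 2-fold in both labels. That is 60.0% and 0.0%, against 18.6% and 15.8% of all genes. The cullin gene CDC53 was 3.37-fold and 3.29-fold higher on replicate 2 of untreated and replicate 1 of allyl alcohol, CDC34, the ubiquitin-conjugating enzyme gene, 2.80-fold and 3.64-fold, and the RING subunit gene HRT1 2.34-fold and 2.01-fold. SKP1, for the adaptor that binds the F-box, had -0.92 and -0.80, and RUB1, for the ubiquitin-like modifier of the cullin, -0.62 and -0.84. HRT1 was under the 2-fold size inside allyl alcohol after either rescaling of the arrays. Among 13 other F-box genes measured, 4 were higher and 2 lower by at least 2-fold in both labels. These are 30.8% and 15.4%, against 18.6% and 15.8% of all genes, and the list's medians were 0.62 and 0.68. The widest was UFO1, at 4.77-fold and 5.07-fold, which is a narrower gap than that of MET30 in each label. The next were DIA2 with -1.43 and -1.97, ELA1 with 1.37 and 1.74 and SAF1 with 1.30 and 1.71.

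Of 7 other basic helix-loop-helix genes 1 was higher and 2 lower by at least 2-fold in both labels, or 14.3% and 28.6%. Against 18.6% and 15.8% of all genes, counts this small are given as a description of related factors only. INO2, an activator of phospholipid genes, was 7.13-fold and 7.94-fold lower on replicate 2 of untreated and replicate 1 of allyl alcohol, TYE7, a regulator of glycolytic genes, 2.50-fold and 2.06-fold lower, and RTG1, a factor of the mitochondrial retrograde response, 3.99-fold and 6.38-fold higher. HMS1 had -0.96 and -0.67. Of 13 other bZIP genes 5 were higher and 1 lower by at least 2-fold, or 38.5% and 7.69%. YAP7 was 3.59-fold and 4.70-fold higher, CST6 3.14-fold and 3.59-fold, YAP5 2.95-fold and 3.54-fold, and YAP3 2.95-fold and 3.62-fold lower. Of 5 inner kinetochore genes, whose products act at the centromere where Cbf1 also binds, 1 was higher and 1 lower by that size. That is 20.0% each, near the 18.6% and 15.8% of all genes. CBF2 was 2.97-fold and 3.21-fold lower, and MIF2 was 2.92-fold and 2.51-fold higher. CTF13 had 0.58 and 1.06, and CSE4 had -0.09 and -0.54. No gene of these lists, nor of the ligase and F-box lists, was called in limma between the labels.

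**Figure D4:**
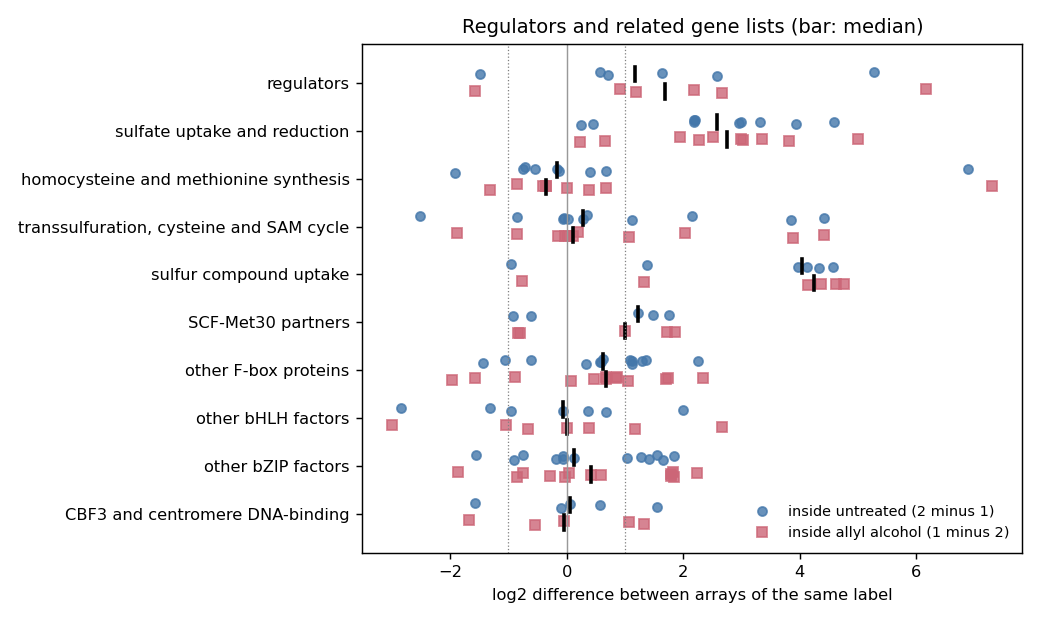
Log2 difference between arrays of the same label (horizontal axis) for each gene of the regulators and 9 related lists (vertical axis); blue circles are untreated replicate 2 minus 1, red squares allyl alcohol replicate 1 minus 2, black bars medians and dotted lines 2-fold. The medians of sulfur compound uptake (4.04 and 4.25) and of sulfate uptake and reduction (2.58 and 2.75) lie above those of the regulators (1.18 and 1.69), and MET2 is the farthest point at 6.89 and 7.31.

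Likeness of pattern was measured as the root mean square difference between log2 signals over the 4 arrays, after each gene was centred on its own mean, among 5399 genes above background on average. With 4 arrays many genes share a pattern, so near neighbours are a description. MET4 was nearest to RRP7 (0.04), PTK1 (0.04) and AXL2 (0.04), and among the regulators to MET31 (0.11). MET31 was nearest to RTC5 (0.03), FIG4 (0.04) and SNT1 (0.04). MET28 was nearest to YPR015C (0.02), HBT1 (0.04) and ATH1 (0.05), and MET30 to YOL097W-A (0.01), YKL106C-A (0.04) and SPS1 (0.05). YKL106C-A was below background on replicate 1 of untreated and replicate 2 of allyl alcohol.

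MET32 had no such close neighbour by this measure, which is not scaled to the size of a gene's gap. Its nearest genes were YBR284W (0.13), YOR161C-C (0.14) and YFR057W (0.18), of which YFR057W was below background on untreated replicate 1 and YOR161C-C and YFR057W on allyl alcohol replicate 2, as MET32 was. Among the regulators MET32 was nearest to MET30, at 1.57. CBF1 was nearest to RPC25 (0.02), an RNA polymerase III subunit gene, HTD2 (0.05) and NOC2 (0.05), a ribosome assembly gene. Its distance to the other 5 regulators ran from 1.14 for MET4 to 3.63 for MET32.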

How the data were processed

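Log2 RMA signals were deposited by the authors, 1 per probe set and array. Per the submitters' processing notes the tools were Affymetrix Expression Console and RMA; no version is given in the sources used here. That the scale is log2 was read from the values (2.78 to 14.75). RMA brings all arrays to 1 distribution, which partly removes a shift in overall mRNA level. Of 10928 probe sets, 5498 matched an S. cerevisiae gene of the RefSeq table of assembly R64 by gene identifier, giving 5449 genes; for 47 with several probe sets the brightest by mean was used. Background was the 95th percentile on each array of 1746 probe sets named outside that table; signals below it give bounds.

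Groups followed the labels. The 2 groups were compared with limma 3.58.1 (R 4.3.3, lmFit, eBayes, no block, two-sided, Benjamini-Hochberg over all genes at 0.05). The code was first run on simulated data with clean group shifts and less noise than these arrays show inside the labels. That run therefore bears on no call here. Members, gene lists and tests were chosen with earlier results of these data known. Genes named were all members, the 3 nearest in pattern to each, and up to 4 of each list with the widest gap in both labels. MET8, MET22, SAM3, RUB1, SAG1, STE3 and ASG7 were named after their values were seen. LUG1 was not measured. The number of arrays limits the precision. P-values measure only the spread between these cultures. The main fit used no pairing by replicate number. The 2 arrays of a number deviated from their group means in opposite ways, with a correlation of -0.973. With 2 arrays per label this restates the likeness of arrays across labels, and it cannot show whether the numbers were pairs. Alternatives tried were other eBayes settings, filters, probe set choices, normalizations, blocks and fold sizes, and leaving out each array.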

Additional observations from a re-analysis of the deposited data

How the results depend on the processing

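Limma called 0 genes under every alternative run, leaving out each array in turn included (0 to 0), and 0 had an unadjusted p under 0.05 except 9 probe sets when all probe sets were tested and 188 genes with the crossed block. With the replicate number as a block, 0 genes were called and the differences were the same as without it, 0.2183 for MET4 and 0.2264 for MET30 among them. With the crossed block, chosen after seeing the data, 0 genes were called. Quantile normalization anew turned MET28 to 0.0134 and MET32 to 0.0632, and the cause was not tested. Without 1 array the differences ran from -0.2371 to 0.6737 for MET4, -1.1443 to 1.0411 for MET28, -1.1092 to 1.562 for MET30, -0.3689 to 0.8209 for MET31, -3.1824 to 2.975 for MET32 and -0.566 to 1.0025 for CBF1. For these fits the lone array left in a label was assumed to vary like the other group.

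The 4 regulators at least 2-fold apart inside both labels were the same under both rescalings and with probe sets averaged. At 1.5-fold they were 5, with MET31, of which 4 were higher and 1 lower, against 28.2% and 26.4% of all genes. At 3-fold they were 3, all higher, without CBF1, against 9.74% higher and 6.64% lower of all genes. At 2-fold, the regulators counted inside untreated alone were 4, against 38.0% of all genes, and inside allyl alcohol alone 5, against 40.8%. These counts were added after seeing the data. Over all genes, quantile normalization gave 931 higher and 934 lower by that size in both labels, against 1014 and 862. Counts at 1.5-fold were 4 for homocysteine and methionine synthesis, 5 for the ligase partners, 10 for other F-box genes and 5 for basic helix-loop-helix genes. Counts at 3-fold were 1, 1 and 1 for the first 3 of these, 2 of 13 for bZIP genes and 0 of 5 for kinetochore genes. All of these were higher, beside 9.74% higher and 6.64% lower of all genes. The all-positive pattern of allyl alcohol replicate 1 over untreated replicate 2 was 6 of 6 under each scaling. Of all genes, 43.2% stood above as deposited, 46.4% after quantile normalization and 49.3% when centred on array medians. The pattern rests on a single pair of arrays. The wider gap inside allyl alcohol held for 5 of 6 regulators after quantile normalization. Signals near background limit MET32, and scanner files were not used here.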
